A study of Mus musculus with 46 samples.

Results

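The early response of the mouse lung to oxygen was read from 11 of the 46 arrays of the series: all those titled as wild type lung at 0 h and all those titled as wild type lung after 24 h of oxygen. The series exposed wild type and Nrf2-mutated mice to 100% oxygen and took whole lung RNA at 0, 24, 48 and 72 h. RNA was hybridised to arrays of 3 designs (types A, B and C), whose probe sets, each a group of short probes for 1 transcript, differ. Wild type at 0 h had 2 arrays of each type, replicates 1a and 1b. Wild type at 24 h had 2 arrays of types B and C and only replicate 1b on type A, so a type A difference at 24 h rests on 1 array, which is assumed to vary as the other groups do. The mutant, given below only where the response of the genotypes was compared, had 11 arrays at 0 h and 24 h. The labels give no age, sex or strain, and leave unsaid whether 1a and 1b came from different animals, so p-values measure only the spread between these samples, which may be technical.

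Hyperoxia injures the lung because oxygen at high pressure makes reactive species that damage the thin alveolar wall, the capillary endothelium first and the epithelium later. Cells answer with antioxidant and detoxifying enzymes, many of them under the transcription factor NRF2, with p21-dependent growth arrest, and with chaperones that hold damaged proteins. In mice the first day is known as a phase before overt leak and neutrophil influx.

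Deposited intensities were scaled to a 2%-trimmed mean of 800.2 to 800.5 on the 11 arrays, and replicate arrays of a group correlated at 0.902 to 0.967. The ratio of the 3' to the 5' Gapdh control, a sign of RNA quality, was 1.1 to 1.44 at 0 h and 0.938 to 1.41 at 24 h, so the ranges overlapped. The mutant arrays at 0 h stood apart, with a Gapdh ratio of 1.67 to 2.26. Lung markers were bright: the surfactant protein gene Sftpa1 read 82678 and 103274 at 0 h and 90746 and 129648 at 24 h on type C. The number of arrays limits the precision of every value given here.

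At 24 h, 258 of 26821 tested probe sets were higher (0.962%) and 204 were lower (0.761%) at a Benjamini-Hochberg adjusted p under 0.05 in limma, 462 in all (1.72%). They stand for 372 named genes. Of the 462, 192 were more than 2-fold higher and 159 more than 2-fold lower. 18 exceeded 4-fold higher and 11 exceeded 4-fold lower, all on the log2 scale after an added value, which makes folds of dim genes too small. Type B gave 135 rises and 114 falls (2.78% of 8948), type A 97 and 65 (1.91% of 8502) and type C 26 and 25 (0.544% of 9371). The median difference of all tested probe sets was -0.06 log2. No gene was called in both directions, and 25 were called on at least 2 probe sets.

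**Figure D1:**
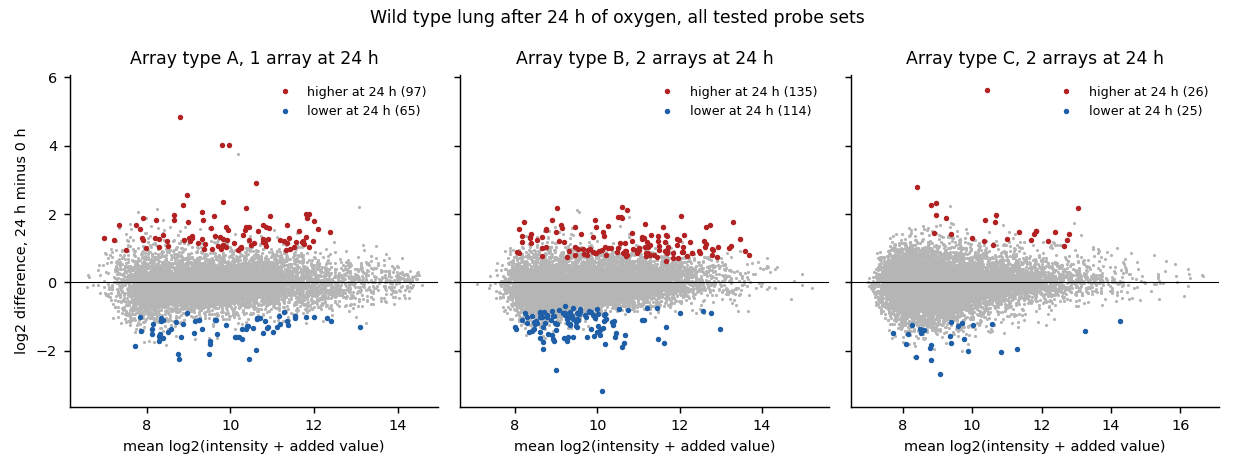
Fitted log2 difference of each tested probe set in wild type lung, 24 h minus 0 h, against its mean log2 level over the 0 h and 24 h arrays, by array type; red and blue points passed an adjusted p under 0.05 and grey points did not. Types A and B hold most called points, and the point near 5.64 on type C is Xaf1.

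The size of this set depended on which arrays shared the estimate of spread and on single arrays. A fit on the wild type arrays alone called 144 probe sets, and one on the 0 h and 24 h arrays alone called 52. Leaving out wild type 0 h replicate 1a or 1b left 141 or 102 calls, leaving out 24 h replicate 1a left 247, and leaving out 24 h replicate 1b, which also removes type A, left 47. On types B and C, 33 of the 300 called probe sets kept the call in each of these 4 fits, and 24 of them rose. They carry 28 named genes, which were chosen by this property after their values were seen and are listed with the results they belong to. On type A, 29 of 162 calls held in the 3 fits that keep an array at 24 h, 24 of them rises. The fit without 24 h replicate 1a removes no type A array, so for type A it changes only the adjustment across types. The single type A array at 24 h was thus never left out in these 3 fits.

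**Figure D2:**
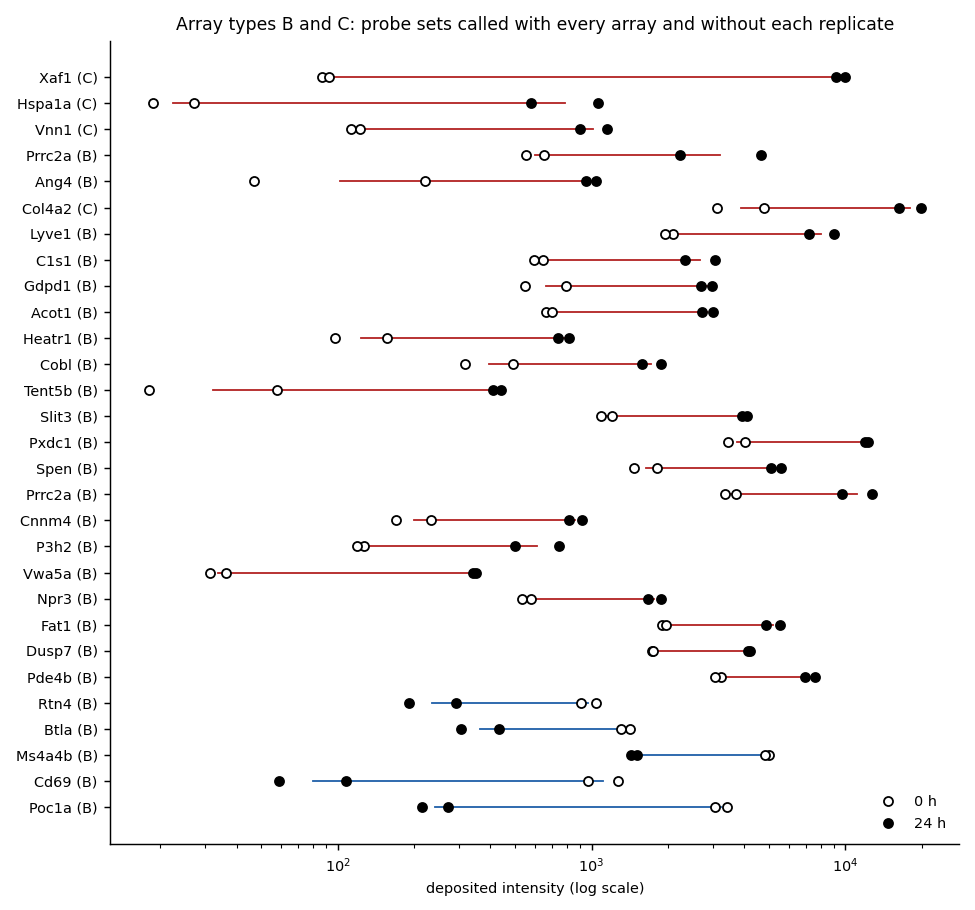
Deposited intensity (log axis) of the probe sets of types B and C with 1 gene symbol that were called with every array and without each replicate in turn; open circles are the 2 arrays at 0 h, filled circles the 2 arrays at 24 h, and a line joins their geometric means (red, higher at 24 h; blue, lower). The arrays of both times do not overlap for any of them, Xaf1 spans the widest gap, and Rtn4, Btla, Ms4a4b, Cd69 and Poc1a are the 5 that fell.

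Inducible heat shock genes rose steeply, Hspa1a and Hspa1b by 16.2-fold and 16.1-fold on type A. Hspa1a and Hspa1b encode the stress-inducible HSP70, which refolds damaged proteins, and are nearly identical neighbours on chromosome 17 (Hspa1a at chr17:34969359-34972156 and Hspa1b at chr17:34956429-34959238, GRCm38.p6), so their probe sets cannot be assigned to one copy with certainty. The 250 bases before each start are shown because the probe sets named for both copies rose. They come from RefSeq (GRCm38.p6, minus strand, 5' to 3'), with capitals marking a pair of facing inverted repeats of the heat shock element, GAANNTTC or TTCNNGAA. Hsph1, the third called member with a match in these 250 bases, is shown beside them (chr5:149636337-149636586, first of its start sites).
Hspa1a: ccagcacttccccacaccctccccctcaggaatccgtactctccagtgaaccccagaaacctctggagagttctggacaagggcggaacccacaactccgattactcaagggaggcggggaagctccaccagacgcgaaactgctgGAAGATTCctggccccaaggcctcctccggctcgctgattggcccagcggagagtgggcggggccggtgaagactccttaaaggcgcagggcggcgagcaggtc
Hspa1b: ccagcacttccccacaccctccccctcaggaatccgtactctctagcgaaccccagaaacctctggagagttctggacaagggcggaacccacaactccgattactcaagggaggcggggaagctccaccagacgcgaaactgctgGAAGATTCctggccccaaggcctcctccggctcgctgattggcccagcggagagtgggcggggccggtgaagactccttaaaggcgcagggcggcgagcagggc
Hsph1: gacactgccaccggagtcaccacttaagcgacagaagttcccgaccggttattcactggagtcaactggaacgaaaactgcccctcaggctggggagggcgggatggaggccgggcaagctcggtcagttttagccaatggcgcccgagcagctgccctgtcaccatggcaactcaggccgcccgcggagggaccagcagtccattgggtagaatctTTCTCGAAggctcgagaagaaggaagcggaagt
The Hspa1a and Hspa1b windows (chr17:34972157-34972406 and chr17:34959239-34959488) share 247 of 250 bases, and in both the GAANNTTC match ends 96 bases before the start. In Hsph1 a TTCNNGAA match ends 25 bases before it. GAANNTTC, read on both strands because it is its own reverse complement, was found in this window in 6 of 13 tested heat shock genes (46.2%) and in 675 of 10674 tested genes (6.32%). For TTCNNGAA these were 3 of 13 (23.1%) and 767 of 10674 (7.19%). Of the 5 called heat shock genes, 2 held GAANNTTC and 1 held TTCNNGAA in these 250 bases. Genes with a called rise did not hold them more often than all genes, with GAANNTTC in 8 of 180 (4.44%) and TTCNNGAA in 9 of 180 (5%). With the 50 bases after the start added, GAANNTTC was in 9 of 13 tested heat shock genes (69.2%) and 768 of 10674 tested genes (7.2%). In that longer window 4 of the 5 called heat shock genes held it (Bag3, Hspa1a, Hspa1b and Hsph1). Of genes with a called rise, 11 of 180 did (6.11%). These motifs were picked after the rise was seen, and a match is a description, not a bound site.

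Hspa1b read 372 and 272 on the 0 h arrays and 6305 on the 24 h array of type A, a 16.1-fold difference (log2 difference 4.01 ± 0.21 SE, limma adjusted p = 4.58e-05). Hspa1a on type A read 363 and 208 at 0 h and 5672 at 24 h, a difference of 4.02 ± 0.30 (adjusted p = 0.00021). The 24 h array lay far above both 0 h arrays in each case. Type C, with 2 arrays at 24 h, carried a second Hspa1a probe set that was below the filter at 0 h (18.7 and 27.1) and read 1063 and 580.2 at 24 h (adjusted p = 0.000728). Hsph1, the HSP110 partner of HSP70, went from 732 and 712 to 3556 (2.18 ± 0.22, adjusted p = 0.00113). Dnajb1, the HSP40 that feeds HSP70 its clients, went from 829.9 and 846 to 2542 (1.52 ± 0.23, adjusted p = 0.0111). Bag3, an HSP70 co-chaperone, went from 683 and 655 to 1447 (1.03 ± 0.20, adjusted p = 0.0338). In all, 5 of 16 tested heat shock genes rose and none fell, each gene taken by its brightest probe set, against 1.34% of 13404 genes rising and 0.739% falling (2.08% called either way). The median of the 16 was 0.77, against -0.04 over all genes. Constitutive Hspa8 (0.50 ± 0.21, adjusted p = 0.297) and the collagen chaperone Serpinh1 (0.37 ± 0.20, adjusted p = 0.438) were not called. Without 0 h replicate 1a, and likewise without 1b, Hspa1a, Hspa1b and Hsph1 remained called and Dnajb1 and Bag3 did not.

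Of 28 tested genes of the extracellular matrix and fibroblast list, 10 rose and none fell by their brightest probe set. Their median was 0.60, and 1.34% of all genes rose and 0.739% fell. The list holds 10 collagen genes, of which 7 rose, while Col6a1 (0.77 ± 0.23, limma adjusted p = 0.146), Col6a3 (0.94 ± 0.24, adjusted p = 0.0842) and Col15a1 (0.39 ± 0.38, adjusted p = 0.715) were not called. Col9a1, a cartilage collagen outside the list, was called lower. The microfibril gene Mfap5 was called lower on another probe set. Col1a1, the main chain of type I collagen, read 820.3 and 637 at 0 h and 5918 at 24 h (2.90 ± 0.22, limma adjusted p = 0.00021, 7.48-fold), and a second probe set gave 1.62 ± 0.19 (adjusted p = 0.00324). Its partner chain Col1a2 rose by 1.58 ± 0.31 (adjusted p = 0.0355) and Col3a1, the collagen of soft tissue and vessels, by 1.61 ± 0.20 (adjusted p = 0.00432). Col5a2, which sets fibril width, went from 331 and 309 to 1586 (2.06 ± 0.20, adjusted p = 0.000959). Col5a1, its partner, was measured on type C with 2 arrays a time and went from 548 and 659 to 2219 and 2615 (1.83 ± 0.28, adjusted p = 0.00793). Its other 3 probe sets were not called and gave 0.14 to 0.85. Lox, the enzyme that cross-links collagen and elastin, went from 204 and 193 to 1564 (2.57 ± 0.20, adjusted p = 0.00021). A second, dim Lox probe set gave -0.21 ± 0.50 and was not called. Eln, elastin, went from 2857 and 1799 to 8479 (1.87 ± 0.36, adjusted p = 0.0322). Pdgfra, the growth factor receptor of lung fibroblasts, went from 2592 and 3234 to 6015 (1.03 ± 0.21, adjusted p = 0.0412).

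The basement membrane collagens rose on 2 array types. Col4a1 and Col4a2 encode the paired chains of type IV collagen beneath the endothelium and epithelium, and lie head to head on opposite strands of chromosome 8, with annotated starts 21 bases apart. Col4a1 went from 2273 and 2355 to 9565 on type A (2.01 ± 0.19, limma adjusted p = 0.000728). Col4a2 went from 4781 and 3121 to 19806 and 16258 on type C (2.18 ± 0.29, adjusted p = 0.00333), and from 2320.1 and 2061 to 8949.7 on type A (1.99 ± 0.29, adjusted p = 0.0106). Both 24 h arrays of type C were more than 3 times as bright as either 0 h array. P3h2, which hydroxylates proline in type IV collagen, rose from 127 and 119 to 747 and 502 on type B (1.57 ± 0.18, adjusted p = 0.00116), with its 0 h arrays below the filter. Chpf, which lengthens chondroitin chains, went from 222 and 180.3 to 1253 on type A (2.26 ± 0.23, adjusted p = 0.00143). Its type B probe set, with 2 arrays at each time, gave -0.47 ± 0.37 and was not called (adjusted p = 0.614). P4ha1, a collagen prolyl hydroxylase, went from 609 and 631 to 1296 (0.98 ± 0.20, adjusted p = 0.0431). Its probe sets on types B and C gave 0.86 ± 0.22 and 0.49 ± 0.50 and were not called. Without 0 h replicate 1a the calls of Col1a2, Col5a1 and Pdgfra were lost, and without 0 h replicate 1b those of Col1a2, Eln and Pdgfra. P4ha1 was lost without either 0 h replicate. The fit without 24 h replicate 1a removes no type A array, and there Pdgfra and P4ha1 were lost through the adjustment across types alone. The type A call of Col4a2 was lost without 0 h replicate 1b. Without 24 h replicate 1b only type B and C members could be fitted, and Col4a2 kept its call while Col5a1 did not.

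**Figure D3:**
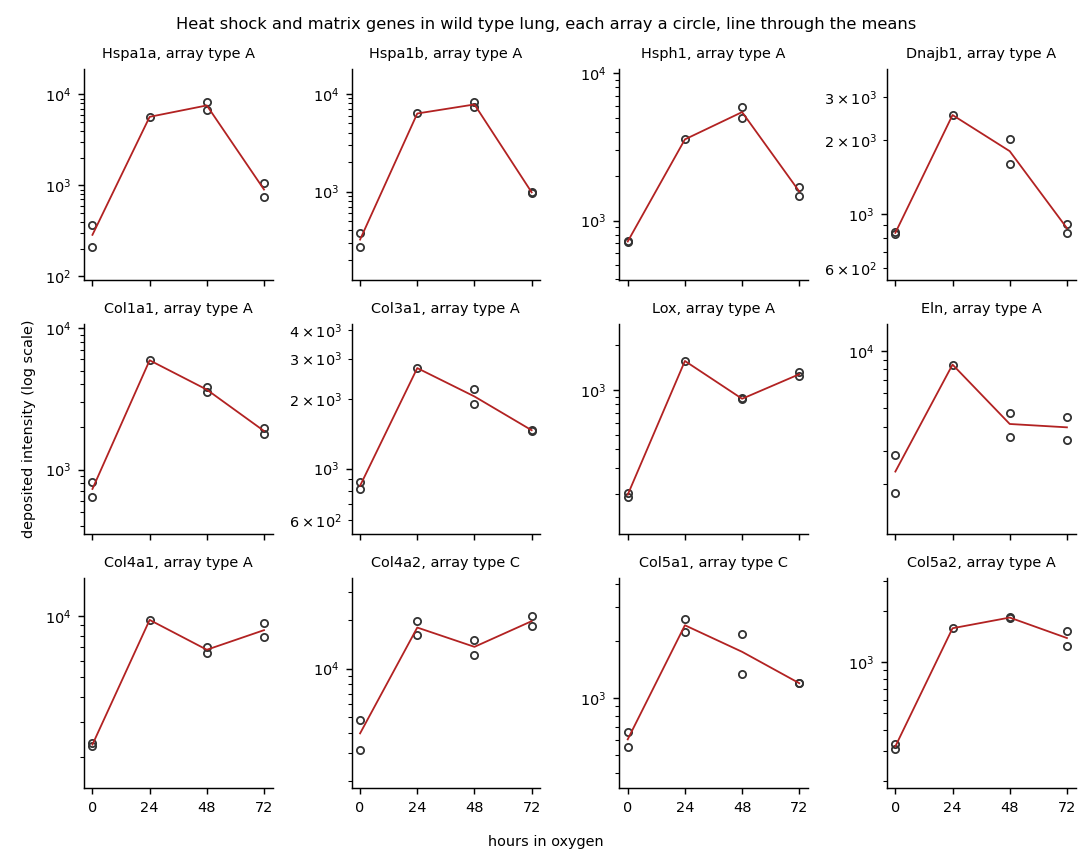
Deposited intensity (log axis, scaled per panel) of heat shock and matrix genes in wild type lung at 0, 24, 48 and 72 h of oxygen; each circle is an array and lines join the means. At 72 h both arrays of Hspa1a, Hspa1b, Hsph1 and Dnajb1 lay below the 24 h array, while both arrays of Col4a1 and Col4a2 stayed above all 0 h arrays.

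Hspa1b read 7371 and 8240.2 at 48 h and 965 and 999 at 72 h. Col1a1 read 3530.2 and 3809.9 at 48 h and 1772 and 1973 at 72 h, below the 24 h array at both times. Col4a2 on type C read 21203 and 18319.5 at 72 h, within the range of its 24 h arrays or above it. Thus Hspa1b and Col1a1 read lower at 72 h than at 24 h and Col4a2 did not, a difference in course that was not tested.

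Endothelial genes rose in part. Of 22 tested endothelial markers 3 rose and none fell, where 1.34% of all genes rose and 0.739% fell. Their median was 0.49, and 19 of 22 were above 0. The summed intensity of the 15 markers on type A was 59176 to 63211 at 0 h and 89518 at 24 h. In RNA from whole lung, more or fewer cells of a type and more or less RNA per cell cannot be told apart. Flt1, a VEGF receptor, went from 2982 and 3306 to 9393 and 8386 on type C (1.47 ± 0.23, limma adjusted p = 0.00965). Its other 3 probe sets gave 0.46 to 0.79 and were not called. Plvap, which spans the diaphragms of endothelial pores, went from 7359 and 6976 to 17107 and 18157 on type B (1.28 ± 0.25, adjusted p = 0.0281). Its other type B probe sets gave 1.06 ± 0.25 (adjusted p = 0.0554) and 0.20 ± 0.18 (adjusted p = 0.675) and were not called. Edn1, the vasoconstrictor endothelin, went from 922 and 804 to 1722 on type A (0.94 ± 0.19, adjusted p = 0.0351). A second Edn1 probe set, whose 24 h array lay within the 0 h range, gave 0.43 ± 0.36 and was not called (adjusted p = 0.649). The main VEGF receptor gene Kdr (0.47 ± 0.32, adjusted p = 0.551) and the tight junction gene Cldn5 (0.41 ± 0.19, adjusted p = 0.358) were not called. None of the 3 calls held without 0 h replicate 1a or without 1b. Flt1 and Plvap were also lost without 24 h replicate 1a, a fit that removes no type A array and so does not test Edn1.

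Lyve1, the hyaluronan receptor that marks lymphatic vessels and some lung macrophages, was firmer. It went from 2086 and 1950.4 to 8988 and 7194 on type B (1.93 ± 0.20, limma adjusted p = 0.000482) and from 1098 and 1297 to 3851 on type A (1.63 ± 0.20, adjusted p = 0.00398). It was called on type B without each replicate, and read 21303 and 22095 at 72 h. Cd93, a surface lectin of endothelium and myeloid cells, rose by 1.56 ± 0.20 on type A (adjusted p = 0.00444). Among regulators of BMP and TGF-beta signals, Smad6, which restrains BMP signalling, went from 2152 and 3036 to 6589.9 (1.34 ± 0.25, adjusted p = 0.0299). It was the 1 call among 28 tested genes of that list, where 2.08% of all genes were called. Eng (0.78 ± 0.17, adjusted p = 0.0412) and Acvrl1 (0.92 ± 0.21, adjusted p = 0.0481), which together form an endothelial receptor, were called on type B only. Their brighter type A probe sets gave 0.65 ± 0.26 and 0.08 ± 0.24 and were not called. The Eng and Acvrl1 calls were lost without any one replicate, and that of Smad6 without 0 h replicate 1a.

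Among genes that glucocorticoids induce, 8 of 17 tested members were higher and none lower, against 1.34% of all genes rising. Their median was 0.97, and 16 of 17 were above 0. Zbtb16, a zinc finger repressor, went from 1199.9 and 1171 to 4748 (1.93 ± 0.25, limma adjusted p = 0.00512). Its type C probe set, with 2 arrays at each time, gave 0.76 ± 0.37 and was not called (adjusted p = 0.371). Fkbp5, a brake on the glucocorticoid receptor, went from 634 and 477 to 1508 (1.33 ± 0.22, adjusted p = 0.0161). Errfi1, an inhibitor of the EGF receptor, went from 2133 and 2176 to 6283 (1.51 ± 0.18, adjusted p = 0.00311). A second Errfi1 probe set gave 0.91 ± 0.21 and was not called (adjusted p = 0.0677). Angptl4, which inhibits lipoprotein lipase, went from 471 and 397 to 1472 (1.60 ± 0.18, adjusted p = 0.00249). Its other probe sets gave 0.46 ± 0.23 and 0.49 ± 0.64 and were not called. Mt2, a metal-binding metallothionein, went from 3664 and 3724 to 10387 (1.47 ± 0.21, adjusted p = 0.00936). Klf9, measured on type B, went from 5112 and 5534 to 11090.5 and 11027 (1.04 ± 0.17, adjusted p = 0.0119). Ddit4 and Per1 complete the 8, and a dim type B probe set of Per1 gave -0.02 ± 0.46. The sister gene Mt1, from 1493 and 1621 to 4048 on type A, missed the threshold (1.34 ± 0.29, adjusted p = 0.0528). Its type B probe set read 4516 and 4622 at 0 h and 4098 and 5497 at 24 h, which overlap (0.05 ± 0.21, adjusted p = 0.945). Of the 8 calls, 5 held without 0 h replicate 1a and 3 without 0 h replicate 1b (Zbtb16, Angptl4 and Errfi1). The 6 that held without 24 h replicate 1a are all on type A, where that fit removes no array, and Klf9 on type B was lost. Many of these genes answer other signals as well.

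Among p53 targets and growth arrest genes 3 of 22 rose, against 1.34% of all genes, with a median of 0.17. Cdkn1a, which encodes the cell cycle inhibitor p21, went from 477 and 424 to 2599.7 (2.34 ± 0.24, limma adjusted p = 0.00155, 5.07-fold) and read 3828 and 3564 at 48 h and 4779 and 4311 at 72 h. A second Cdkn1a probe set, from 533 and 566 to 1399.6, missed the threshold (adjusted p = 0.0737). Sesn2, a sestrin that restrains growth signalling, went from 373 and 247 to 1042 and 959 on type C (1.43 ± 0.27, adjusted p = 0.0234). Ddit4, which inhibits mTORC1, went from 1140.2 and 1355 to 3105 (1.27 ± 0.24, adjusted p = 0.0295). Cdkn1a held its call without either 0 h replicate, Ddit4 and Sesn2 did not, and Sesn2 was lost without any one replicate. None of 25 tested cell cycle genes was called, where 2.08% of all genes were. Their median was -0.22, and 0.15 without 24 h replicate 1b, with 10 genes fitted.

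Clock genes moved in both directions. Of 18 tested, Per1 and Bhlhe40 rose and Nr1d2 and Hlf fell, where 1.34% of all genes rose and 0.739% fell. Nr1d2, which encodes the repressor REV-ERB beta, read 12999 and 12843 at 0 h and 5070.3 and 4842 at 24 h on type B (-1.36 ± 0.19, limma adjusted p = 0.00449), and its type A probe set fell by 1.24 ± 0.22 (adjusted p = 0.0261). At 48 h it read 13131 and 10879 on type B, back near 0 h. Hlf, a transcription factor driven by the clock, went from 676 and 717 to 308 and 290.0 (-0.95 ± 0.19, adjusted p = 0.0281). Dbp, its relative, went from 335 and 632 to 74.5 (-1.82 ± 0.40), just short of the threshold at an adjusted p of 0.0501. Per3 was lower on a dimmer type B probe set (-0.82 ± 0.17, adjusted p = 0.0347) but its brightest gave -0.53 ± 0.18 (adjusted p = 0.183). Per1 went from 479 and 569 to 1098 (0.97 ± 0.21, adjusted p = 0.0475) and Bhlhe40, a repressor, from 597 and 558 to 1298 (1.07 ± 0.20, adjusted p = 0.0299). Arntl, the core activator (0.34 ± 0.26, adjusted p = 0.615), and Per2 (-0.43 ± 0.27, adjusted p = 0.499) were not called. Only Nr1d2 held without either 0 h replicate, and it was lost on type B without 24 h replicate 1b. The clock time of tissue collection is not given in the sources used here.

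Of 24 immediate early genes 3 rose, against 1.34% of all genes, with a median of 0.19. Maff, a small MAF factor, went from 1401 and 1498 to 3193 and 4915 on type B (1.38 ± 0.22, limma adjusted p = 0.00936), and Fosl2 from 2046 and 1889 to 4076 and 3771 (0.95 ± 0.16, adjusted p = 0.0113). Their other probe sets were not called, at 0.26 ± 0.38 for Maff on type A. For Fosl2 these gave 0.52 ± 0.19 on type B and -0.19 ± 0.27 on type A. Jun rose from 936 and 839 to 1856 on type A (adjusted p = 0.0379). Fos was not called (-0.35 ± 0.18, adjusted p = 0.418). Atf3, a stress repressor, was called on 1 dim probe set (1.23 ± 0.20, adjusted p = 0.0182) and not on its brightest (0.36 ± 0.18, adjusted p = 0.41). No call of the 3 held without 0 h replicate 1a or without 1b, and only Maff held without 24 h replicate 1a.

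**Figure D4:**
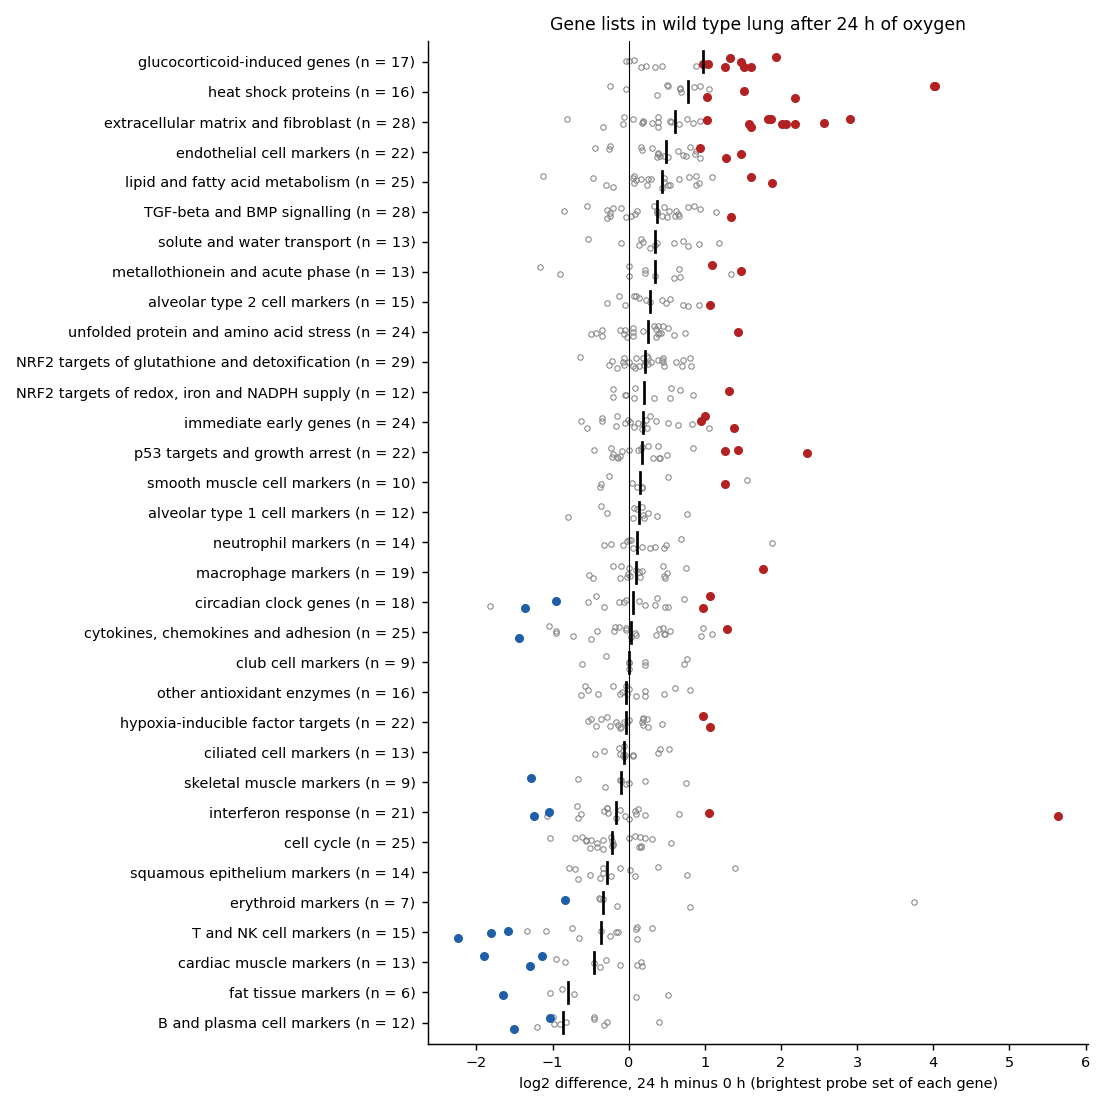
Log2 difference, 24 h minus 0 h, of every tested gene of 33 lists, each by its brightest probe set; red and blue points passed an adjusted p under 0.05, open points did not, and a black bar marks the median of the list. Glucocorticoid-induced (0.97), heat shock (0.77) and matrix genes (0.60) have the highest medians, and B and plasma cell markers the lowest (-0.87).

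Antioxidant genes were called about as seldom as all genes, of which 2.08% were called. None of 29 tested NRF2 targets of glutathione and detoxification was called, with a median of 0.21, nor any of 16 other antioxidant enzymes, with a median of -0.03. Of 12 NRF2 targets that serve redox balance, iron handling or NADPH supply 1 rose, Osgin1, a stress-induced growth inhibitor. It went from 94.2 and 72.9, below the filter, to 441 and 353 on type B (1.32 ± 0.19, limma adjusted p = 0.00549). That call was lost without 0 h replicate 1b and held without each other replicate. Gclc, the catalytic subunit of glutathione synthesis, read 1112 and 946 at 0 h, 1849.9 at 24 h and 4688 and 6032 at 72 h, and its 24 h difference was 0.80 ± 0.23 (adjusted p = 0.128). Slc7a11, the cystine importer, read 124 and 163 at 0 h, 354 and 346 at 24 h and 1646 and 1642 at 72 h (0.82 ± 0.21 at 24 h, adjusted p = 0.0768). Hmox1, heme oxygenase, read 2145 and 2272 at 0 h, 3594 at 24 h and 8586 and 5329 at 72 h (0.68 ± 0.29 at 24 h, adjusted p = 0.302). Gpx2, an epithelial glutathione peroxidase, had a 24 h difference of 0.45 ± 0.22 (adjusted p = 0.388), and Nqo1, a quinone reductase near background on these arrays, one of -0.26 ± 0.23 (adjusted p = 0.668). Nfe2l2, which encodes NRF2 itself, read 2428 and 2659 at 0 h and 3425 at 24 h (0.42 ± 0.25, adjusted p = 0.499). Of 24 genes of unfolded protein and amino acid stress only Sesn2 rose by its brightest probe set, and Hspa5, the main chaperone of the endoplasmic reticulum, was not called (0.42 ± 0.25, adjusted p = 0.481).

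Some lymphocyte markers fell. Among T and NK cell markers 3 of 15 fell and none rose, where 0.739% of all genes fell and 1.34% rose. Their median of -0.37 turned to 0.07 without 24 h replicate 1b, when only 3 members on types B and C could be fitted. Among B and plasma cell markers 2 of 12 fell, with a median of -0.87 and 11 of 12 below 0. The summed intensity of the 12 T and NK markers on type A was 7407 to 8453 at 0 h and 4803 at 24 h, and that of the 12 B and plasma markers 24653 to 25254 and 15442. On type C, with 2 arrays at each time, the 2 T and NK markers summed to 9313 to 12179 at 0 h and 7025 to 9869 at 24 h, which overlap. The 1 such marker on type B read 48.3 to 247 and 133 to 252, below the filter value. No marker was at 0. The early activation antigen Cd69, measured on both 24 h arrays of type B, went from 966 and 1273 to 108 and 59, below the filter (-2.57 ± 0.23, limma adjusted p = 0.00021). Btla, an inhibitory receptor of lymphocytes, went from 1418 and 1309.8 to 307 and 432 (-1.60 ± 0.17, adjusted p = 0.000753). Ms4a4b, a membrane protein of T cells whose probe set can share sequence with relatives, went from 5009.8 and 4834 to 1506 and 1431 (-1.66 ± 0.19, adjusted p = 0.000959). These 3 falls were called without each replicate in turn. Cd3e, a chain of the T cell receptor complex, went from 656 and 643 to 75.9 (-2.24 ± 0.43, adjusted p = 0.0322). The killer cell protease Gzma went from 808 and 1331 to 241 (-1.81 ± 0.31, adjusted p = 0.0206) and the NK receptor Klrd1 from 534 and 626 to 139.6 (-1.59 ± 0.28, adjusted p = 0.0239).

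B lineage genes were lower too. Mzb1, a chaperone of antibody secretion, went from 1635 and 2519.7 to 584 and 414 on type B (-1.80 ± 0.25, limma adjusted p = 0.00398), and a dim probe set of it gave -0.61 ± 0.51 (adjusted p = 0.641). Bank1, a B cell scaffold, went from 605 and 973 to 198 and 104 (-1.71 ± 0.30, adjusted p = 0.0163). Fcer2a, the low-affinity IgE receptor, went from 357 and 392 to 81.5 (-1.50 ± 0.28, adjusted p = 0.0299). Ighm, the heavy chain of IgM, went from 6751 and 6101 to 3112 (-1.03 ± 0.18, adjusted p = 0.0241). A further probe set of Ighm was called lower and the other 4 were not called, 2 of them above 0, and these genes share sequence. Ms4a1, which encodes CD20, was called on a dimmer probe set (-1.33 ± 0.23, adjusted p = 0.0218) and just missed on its brightest (-1.20 ± 0.30, adjusted p = 0.0791). Cd79a, a chain of the B cell receptor, was not called (-0.28 ± 0.29, adjusted p = 0.726), nor was Cd4 (0.11 ± 0.34, adjusted p = 0.933). Of the list members, only Gzma held without 0 h replicate 1a and none held without 0 h replicate 1b. Bank1 was lost without 0 h replicate 1b and without 24 h replicate 1b, and Mzb1 without 24 h replicate 1b.

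Heart muscle RNA can reach a lung sample through the muscle sleeves of the pulmonary veins or adherent tissue. Of 13 tested cardiac markers 3 fell and none rose, against 0.739% of all genes falling, with a median of -0.46. Their summed intensity on type A (12 genes) was 40571 to 42691 at 0 h, 25267 at 24 h and 10623 to 10722 at 72 h. Myl7, the atrial myosin light chain, went from 11733 and 11871 to 4750.2 (-1.30 ± 0.19, limma adjusted p = 0.0113) and on type B from 3112 and 3246 to 1528 and 1290.1 (-1.11 ± 0.24, adjusted p = 0.0355). Tnni3, cardiac troponin I, went from 3304 and 3364 to 1466 (-1.14 ± 0.22, adjusted p = 0.0299). Pln, the calcium pump inhibitor phospholamban, went from 2223 and 3773 to 863 and 536 on type B (-1.90 ± 0.28, adjusted p = 0.00576), and a second probe set fell by 1.24 ± 0.23 (adjusted p = 0.022). Myh6 (0.17 ± 0.27, adjusted p = 0.838) and Nppa (-0.11 ± 0.29, adjusted p = 0.922), further atrial genes, were not called. Mb, myoglobin, was the 1 called gene of 9 skeletal muscle markers (-1.28 ± 0.26, adjusted p = 0.038). Dhrs7c, a muscle reductase, fell from 774 and 604 to 57.1 and 116 on 1 type B probe set (adjusted p = 0.00564). That call was lost without 0 h replicate 1a, and its type C probe set was not called. Without 0 h replicate 1a Pln kept its call and Myl7 and Tnni3 did not. Without 0 h replicate 1b none of the 3 kept it, and Mb was lost without either 0 h replicate. How far a different share of such tissue in the samples contributed was not tested.

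**Figure D5:**
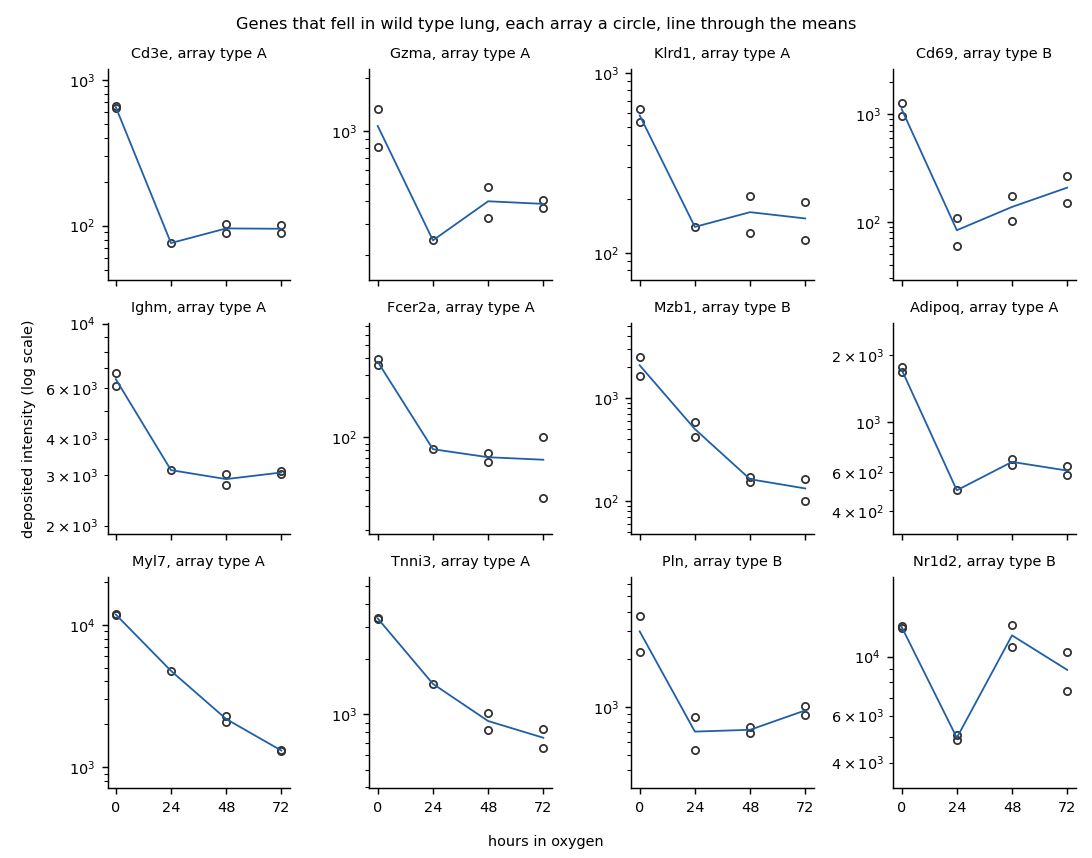
Deposited intensity (log axis, scaled per panel) of lymphocyte, fat, heart muscle and clock genes in wild type lung at 0, 24, 48 and 72 h of oxygen; each circle is an array and lines join the means. Nr1d2 was back near its 0 h level at 48 h, while both arrays of Myl7 and Tnni3 lay below the 24 h array at 48 h and at 72 h.

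Adipoq, the fat cell hormone adiponectin, fell from 1682 and 1768 to 496 (-1.65 ± 0.22, limma adjusted p = 0.00668). It was the 1 call among 6 fat markers, which had a median of -0.79, where 0.739% of all genes fell. The Adipoq call held without either 0 h replicate. Bpgm, a red cell enzyme, fell from 7578 and 8427 to 4468 and 4369 on type B (-0.84 ± 0.17, adjusted p = 0.0299), a call lost without any one replicate. Its type A probe set was called lower as well, from 2801 and 3279 to 1247 (-1.23 ± 0.21, adjusted p = 0.0212). That call was lost without either 0 h replicate. The alpha globin gene Hba-a1 read 612 and 268 at 0 h, 6520.1 at 24 h, and 2113 and 13228 at 48 h. Its fitted difference of 3.75 ± 1.26 was not called (adjusted p = 0.184), as replicates differed several-fold.

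Lists of epithelial and inflammatory genes held few calls, as did all genes (2.08% called). Of 15 type 2 cell markers only Abca3, the lipid pump of surfactant storage, rose, from 6719 and 6608 to 13472 and 14726 on type B (1.07 ± 0.17, limma adjusted p = 0.00882). Its type C probe set gave 0.61 ± 0.28 (adjusted p = 0.343), and the call was lost without either 0 h replicate and without 24 h replicate 1b. Sftpc, which encodes surfactant protein C, differed by 0.07 ± 0.35 (adjusted p = 0.959). The club cell secretory protein gene Scgb1a1 read 15221 and 14184 at 0 h and 24265 at 24 h (0.72 ± 0.31, adjusted p = 0.318). None of 12 type 1, 9 club or 13 ciliated cell markers was called, nor any of 13 transport genes, and the sodium channel gene Scnn1a came closest (1.19 ± 0.27, adjusted p = 0.0511). Of 14 neutrophil markers none was called, and S100a8, a calgranulin, read 4850.1 and 4799.5 at 0 h, 4565 at 24 h and 9822 and 9647 at 48 h. Their summed intensity on type A was 14098 to 14640.0 at 0 h and 15194 at 24 h. Of 25 cytokine and adhesion genes Ccl7 rose from 17.7 and 14.1 to 153, below the filter at both times (adjusted p = 0.0477), and Ccl9 fell by 1.44 ± 0.30 (adjusted p = 0.0454). Marco, a scavenger receptor of alveolar macrophages, went from 262 and 256 to 1074 (1.77 ± 0.21, adjusted p = 0.00333), and was the 1 call among 19 macrophage markers. Marco held without either 0 h replicate, Ccl9 only without 0 h replicate 1a, and Ccl7 in no such fit. Lbp, which binds bacterial lipopolysaccharide, rose from 998 and 934 to 2256 and 2110.4 on type C (1.09 ± 0.22, adjusted p = 0.0319). Its type A probe set was not called, and the type C call was lost without any one replicate.

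Xaf1, an interferon-induced partner of the apoptosis inhibitor XIAP at chr11:72301461-72313733 (GRCm38.p6), gave the largest difference of any tested probe set. It read 87 and 92.3 at 0 h, below the filter, and 10002 and 9207 at 24 h on type C (5.64 ± 0.37, limma adjusted p = 4.58e-05). The later wild type arrays read 3398 and 4491 at 48 h and 6894 and 7756 at 72 h. It was called without each replicate in turn. It belongs to the interferon list, where 2 of 21 tested genes rose and 2 fell, against 1.34% and 0.739% of all genes. The other rise was Oasl2, a relative of the antiviral oligoadenylate synthetases, from 779 and 618 to 1488 and 1655 (1.05 ± 0.21, adjusted p = 0.0265). Psmb9, an immunoproteasome subunit (-1.24 ± 0.19, adjusted p = 0.0116), and Gbp3, a guanylate-binding protein (-1.05 ± 0.22, adjusted p = 0.0487), fell. Isg15 (-0.27 ± 0.25, adjusted p = 0.689), Irf7 (-0.17 ± 0.24, adjusted p = 0.815) and Ifit1 (0.66 ± 0.25, adjusted p = 0.252) were not called, and the median of the list was -0.17. Oasl2 was lost without any one replicate, Gbp3 without either 0 h replicate, and Psmb9 without 0 h replicate 1b.

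Types B and C had 2 arrays at each time. Acot1, a fatty acyl-CoA thioesterase, went from 663 and 702 to 2715 and 3004 on type B (1.88 ± 0.16, limma adjusted p = 0.000183) and from 602 and 618 to 1931 on type A (1.54 ± 0.20, adjusted p = 0.00512). With Angptl4 it was 1 of 2 calls among 25 lipid genes, where 2.08% of all genes were called. On type B it read 834 and 779.7 at 48 h and was higher again at 72 h, at 1639 and 1853. Gdpd1, a glycerophosphodiester phosphodiesterase, had the same shape, from 549 and 794 to 2693 and 2994 (1.91 ± 0.17, adjusted p = 0.00021). It read 865 and 825 at 48 h and 2291 and 2433 at 72 h. A brighter Gdpd1 probe set was not called (0.16 ± 0.17, adjusted p = 0.72). Vnn1, which makes cysteamine from pantetheine, went from 113 and 123, below the filter, to 1147 and 902 on type C (2.33 ± 0.29, adjusted p = 0.00249) and was called on type A as well. C1s1, a serine protease of the classical complement pathway, went from 642 and 592 to 3071 and 2342 (1.92 ± 0.19, adjusted p = 0.00047) and stayed at 2962 and 2831 at 72 h.

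Further rises on type B kept the call without each replicate in turn, and were picked for that after their values were seen. Slit3, a guidance ligand, went from 1092 and 1199 to 4095 and 3931 (1.70 ± 0.16, limma adjusted p = 0.000227). Fat1, a giant cadherin, went from 1895 and 1966 to 5508 and 4884 (1.37 ± 0.17, adjusted p = 0.00195), and Cobl, an actin nucleator, from 319 and 492 to 1581 and 1873 (1.82 ± 0.20, adjusted p = 0.000849). Npr3, the clearance receptor of natriuretic peptides, went from 580.3 and 534 to 1876 and 1666 (1.47 ± 0.20, adjusted p = 0.00371). Pde4b, which breaks down cyclic AMP, went from 3238 and 3056 to 7587 and 6909 (1.17 ± 0.16, adjusted p = 0.00333). Dusp7, a phosphatase of ERK kinases, went from 1734 and 1745 to 4216 and 4135 (1.21 ± 0.14, adjusted p = 0.0016). In each of the 6 the lowest 24 h array was more than 2 times the highest 0 h array. Pxdc1 (1.67 ± 0.17), Spen, a transcriptional repressor (1.63 ± 0.17), and Prrc2a (1.62 ± 0.20 and 2.20 ± 0.28 on 2 probe sets of type B) rose likewise, though a type C probe set of Prrc2a gave 0.02 ± 0.55. Heatr1, a factor of ribosome synthesis, Tent5b, Vwa5a, Cnnm4 and Ang4 also rose, and kept the call without each replicate, from 0 h levels below the filter. Ang4 comes from a probe set type that can share sequence with other angiogenins, and a type C probe set gave 0.17 ± 0.32. St3gal1, a sialyltransferase, rose from 1406 and 310.1 to 3529 and 3285 on type B (2.11 ± 0.48, adjusted p = 0.0495), with its 0 h arrays far apart, and held only without 0 h replicate 1a.

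On type C, Spred2, a brake on ERK signalling (2.26 ± 0.42, limma adjusted p = 0.0232), Gm13889 (1.96 ± 0.41, adjusted p = 0.0357) and Spon2, a matrix protein of the spondin family (1.87 ± 0.30, adjusted p = 0.0117), completed the largest rises. For each of them another probe set on type C was not called and below 0. Spred2 kept its call only without 24 h replicate 1a, Spon2 only without 24 h replicate 1b and Gm13889 in none of these fits.

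The largest fall was Poc1a, a centriole protein, from 3412 and 3074 to 215 and 273 on type B (-3.19 ± 0.27, limma adjusted p = 0.00021), with every later wild type array between 134 and 377. It was called without each replicate in turn. Rtn4, which shapes the endoplasmic reticulum, fell from 908 and 1037 to 292 and 190.5 (-1.59 ± 0.20, adjusted p = 0.00249). Pet100, a factor of cytochrome oxidase assembly, went from 5152 and 6385 to 2213 and 1112 (-1.78 ± 0.28, adjusted p = 0.00965), and a dimmer probe set gave -0.06 ± 0.27. Limk2, a kinase of actin turnover, fell on 1 type B probe set (-1.73 ± 0.35, adjusted p = 0.03) and not on its brighter type A one (0.02 ± 0.29, adjusted p = 0.989). Pet100 was lost without 0 h replicate 1b and without 24 h replicate 1b, and Limk2 without any one replicate.

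Type C falls were less steady. Polb, the repair polymerase beta, went from 941 and 859 to 85.4 and 118 (-2.28 ± 0.45, limma adjusted p = 0.0286) while its type A probe set gave 0.03 ± 0.32. Mgl2, a lectin of macrophages and dendritic cells, went from 3088 and 4207 to 923 and 698 (-2.03 ± 0.41, adjusted p = 0.03). Calhm6 (-2.17 ± 0.35), Plscr1 (-1.92 ± 0.41), Rnf32 (-1.82 ± 0.28), Gip (-1.58 ± 0.32), Actl7a (-1.50 ± 0.30) and Cbx1 (-1.49 ± 0.34) make up the 8. Plscr1, Rnf32, Actl7a and Cbx1 each had a brighter probe set that was not called. Of the 8 falls only Calhm6 held without 0 h replicate 1a, Gip and Rnf32 held without 24 h replicate 1a, and none held without 0 h replicate 1b or without 24 h replicate 1b.

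On type A the largest falls were Tradd, an adaptor of the TNF receptor (-2.25 ± 0.37, limma adjusted p = 0.018), Cd3e, Cwf19l1 (-2.09 ± 0.30, adjusted p = 0.00965), the cartilage collagen gene Col9a1 (-2.08 ± 0.30, adjusted p = 0.00936), Tmem14c and Gzma. Tmem14c, a mitochondrial porphyrin transporter, went from 2389 and 2421 to 554 (-1.97 ± 0.22, adjusted p = 0.00195), read 327 and 369 at 72 h, and alone of these 6 held without either 0 h replicate. Other probe sets of Tradd (0.39 ± 0.35, type C) and Cwf19l1 (-0.22 ± 0.18 and 0.26 ± 0.28, type B) were not called. Hk2, hexokinase 2, rose from 181 and 237 to 523 (1.07 ± 0.20, adjusted p = 0.0291), and with P4ha1 was 1 of 2 calls among 22 targets of the hypoxia-inducible factors, whose median was -0.04. Vegfa, the best known of them, was not called (-0.36 ± 0.22, adjusted p = 0.51). Hk2 was lost without either 0 h replicate. Myh11, smooth muscle myosin, rose on type A (1.27 ± 0.19, adjusted p = 0.0119), was the 1 call among 10 smooth muscle markers, was lost without 0 h replicate 1a, and its type B probe set gave -0.31 ± 0.17. None of 14 squamous epithelium markers was called. Of all genes 2.08% were called, the share to set beside these list counts.

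The 24 h response was set against that of the Nrf2-mutated mice by the difference of the 2 responses in the same fit. That difference was called for 522 of 26821 probe sets (1.95%), and for 59 of the 462 called in wild type (12.8%). Those 462 were chosen by the wild type response, which is a part of this difference, so nothing is read from their share. Each such difference rests on the mutant arrays at 0 h, which stood apart in the Gapdh ratio, and the part of this in the differences was not tested. Xaf1 read 222 and 126 at 0 h and 397 and 91.6 at 24 h in the mutant, against 10002 and 9207 in wild type at 24 h, a difference of response of 5.44 (adjusted p = 0.000475). Hspa1b read 3933 in the mutant at 0 h and 7374 and 7385 at 24 h, so that its 24 h level was close to that of wild type and its 0 h level was not. Acot1 on type B read 748 and 779.9 at 0 h and 1238 and 1044 at 24 h in the mutant, below the wild type 24 h arrays. Nr1d2 on type B moved the other way in the mutant, from 5077 and 6182 to 10262 and 9984, a difference of response of -2.20 (adjusted p = 0.00222). Lyve1 on type B went from 977 and 1234 to 7946 and 6594 in the mutant, and its difference of response was not called (-0.66, adjusted p = 0.25). Cdkn1a went from 417 to 2133 and 2302 in the mutant, with a difference of 0.13 (adjusted p = 0.887). Nfe2l2 itself read 448 at 0 h and 424 and 303 at 24 h in the mutant. The count of 522 fell to 142 without wild type 0 h replicate 1a, 248 without 0 h replicate 1b, 56 without 24 h replicate 1b, 119 without mutant 0 h replicate 1b, and 205 and 164 without mutant 24 h replicates 1a and 1b.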

How the data were processed

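The deposited values were intensities per probe set, already scaled to a common trimmed mean by the authors, as the deposited files show; the software and settings were not stated there or in the labels. Each array type was fitted separately with limma 3.58.1 in R 4.3.3 on log2(intensity + the 25th percentile of that type: 78.5 on A, 126 on B, 106 on C), with a mean for each of the 8 groups of genotype and time. Control probe sets were left out, and a probe set was tested if over the 40th percentile of its type (196, 273 and 210, the filter value) on at least 2 arrays. P-values were adjusted by Benjamini-Hochberg over the 3 types, and called means an adjusted p under 0.05. The genotype difference is the wild type minus the mutant 24 h response in the same fit. Scripts were tested on simulated data.

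The comparison and the gene lists were chosen with earlier results of these data known. Named genes are the 8 largest called rises and falls on each of types B and C and the 6 largest on type A, among probe sets with 1 symbol whose arrays do not overlap and whose lowest array in the brighter group is above the filter value. Added to them are up to 3 called genes per list, those of smallest p, and a short set of antioxidant, clock and lung genes whether called or not. The probe sets called without each replicate, and other genes named beside these, were chosen after their values were seen. A gene in a list counts by its brightest probe set, and counted so, 1.34% of all genes rose and 0.739% fell. Promoter sequences and positions come from RefSeq tables of GRCm38.p6. Probe sets whose identifier carries a suffix for shared sequence can read related genes. Other scalings, filters, fits and left-out arrays were tried.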

Additional observations from a re-analysis of the deposited data

Results flagged for a closer look

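The 24 h response of wild type minus that of the mutant was tested for 127 named probe sets, and 27 passed an adjusted p under 0.05 in limma. Over all tested probe sets 522 of 26821 passed (1.95%). The named probe sets were chosen largely by the wild type response, which is a part of this difference, so nothing is read from their share. The mutant arrays at 0 h stood apart in RNA quality, with a Gapdh 3' to 5' ratio of 1.67 to 2.26 against 0.858 to 1.54 on all other arrays, and the part of this in the differences was not tested. Type A had a single array both for mutant lung at 0 h and for wild type lung at 24 h. No group had 4 or more arrays, so single arrays were not tested as outliers.

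The response was higher in wild type for 14 probe sets. The difference was 5.44 log2 for Xaf1, 3.78 for Wfdc21, 3.54 for Ang4, 3.11 for Hspa1b, 2.48 for Spon2 and 2.09 for Hspa1a. It was 1.89 for Lox, 1.59 for Col3a1, and 1.52 and 1.35 for the 2 probe sets of Col1a1. It was 1.51 for Vwa5a, 1.48 for Gdpd1, 1.38 for Acot1 and 1.33 for Heatr1.

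It was lower in wild type for 13. Among lymphocyte genes the difference was -3.58 for Cd3e, -2.01 for Ighv14-2 and -1.49 for Ighm. Among clock genes it was -3.04 for Dbp, -2.20 for Nr1d2, -1.92 for Hlf, -1.81 for Per1 and -1.39 for Per3. It was -2.75 for Tradd, -1.87 for Poc1a, -1.85 for Rnf32, -1.76 for Sesn2 and -1.09 for Fosl2.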

How the results depend on the processing

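The total of called probe sets was 462, and 144 with only wild type arrays in the fit, 52 with only the arrays compared, 271 with types B and C only, and 47 to 247 without 1 replicate. The 258 rises became 85, 37, 143 and 29 to 127 under the same changes, and 409 with a trended, robust eBayes. The 204 falls became 59, 15, 128 and 18 to 120. The 522 genotype differences became 819 with the filter at the 60th percentile, 866 with the trended, robust eBayes, 213 with types B and C only, and 56 to 526 without 1 replicate. The other settings kept these counts within 1.5 times. Quantile normalization gave 263 rises among 427 calls and moved the median of all probe sets from -0.06 to -0.01. No named called probe set turned its direction. The median of a list changed sign for 8 of 31 lists with types B and C only and also for 8 without 24 h replicate 1b, among them T and NK, fat, skeletal muscle, cell cycle and clock genes. Under every other setting it did so for at most 2 of 33. Pairing by replicate number was not adopted, since the labels give no shared origin. In 26 of 71 pairs of groups the deviations correlated over 0.1 (-0.099 to 0.370 over all pairs). A low correlation cannot exclude a shared source, so none is excluded for any pair. The highest value was 0.370 on type A, 0.245 on type B and 0.124 on type C. On type A the 24 h array is replicate 1b alone, so a deviation shared by replicates 1b would enter its differences. With the replicate block 591 probe sets were called, and 551 differed between genotypes. Having 1 or 2 arrays a group limits the precision of every value.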
